A study of Mus musculus with 5 samples.

Results

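Iron handling and heme genes were followed in macrophages that had entered a Matrigel plug with or without a myeloma antigen that T cells could see. The group holds 9 of the 18193 named genes of the array. Those for iron are the transferrin receptor Tfrc, the transporters Slc11a1 and Slc11a2, the ferritin subunits Fth1 and Ftl1, the exporter Slc40a1 and the ferroxidase Cp. Those listed under heme breakdown are heme oxygenase 1 (Hmox1) and biliverdin reductase B (Blvrb). Every probe set whose platform annotation carries one of these symbols was taken, including those that carry a second symbol, which gave 28 of the 45101 probe sets on the array. Of these, 25 were compared between groups and 3, all for Tfrc, are control probe sets of the platform that stand outside the fit. Tumoricidal macrophages (3 arrays) came from idiotype-specific TCR-transgenic SCID mice that received MOPC315 myeloma cells in subcutaneous Matrigel, and control macrophages (2 arrays) came from the same kind of mice given an antigen-loss variant of MOPC315. All mice were on the Balb/c background and 7 to 12 weeks old, and in both groups CD11b+ cells were sorted from the plugs on day 8. SCID mice make almost no T and B cells of their own, so their T cells are largely those of the transgene. Both groups had a tumor in the plug, so no array shows macrophages without one. The labels call the arrays biological replicates without saying whether each is 1 animal, so the p-values measure the spread between these arrays, and with 3 arrays against 2 their number limits the precision.

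Macrophages take up iron as transferrin through Tfrc and as heme from engulfed cells. Hmox1 opens the heme ring and releases iron, carbon monoxide and biliverdin, and the iron is either stored inside a ferritin shell of Fth1 and Ftl1 subunits or exported through ferroportin, the product of Slc40a1. Macrophages stimulated by interferon-gamma and bacterial products are known to hold back iron, with less ferroportin and more Slc11a1 (Nramp1), whereas macrophages that clear dying cells or red cells are known for high ferroportin and heme oxygenase.

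The values are linear signals per probe set, scaled here so that all arrays have the same median, and differences are log2 of tumoricidal over control, fitted with limma and adjusted by Benjamini-Hochberg over all 41053 probe sets tested. At an adjusted p under 0.05, tumoricidal signals exceeded control signals for 14 probe sets of the array (0.0341%) and lay below them for 7 (0.0171%). Bacterial spike-in signals split the arrays into 2 sides that both hold both groups: the BioC signal was 166 in tumoricidal replicate 3 and 173 in control replicate 2 (the low-BioC arrays), against 609 to 683 on the other 3 arrays. The labels name no batch. Macrophage markers were bright in both groups. Csf1r read 5913 to 6808 on the tumoricidal arrays and 5186 and 5290 on the control arrays. The 11 markers measured summed to 30500 to 47161 on the tumoricidal and to 28402 and 39978 on the control arrays. They do not show that the sorted cells were macrophages alone, and markers of other cell types are given below. The median log2 difference over all tested probe sets was 0.09 with this scaling, -0.11 with the signals as deposited and 0.00 after quantile normalization, and the differences below are to be read against that shift.

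None of the 25 member probe sets passed the adjusted threshold in this fit. The lowest adjusted p of a member was 0.175 (limma), for the ferroportin gene Slc40a1, and the highest was 0.982. At an unadjusted p under 0.05, 2 member probe sets had higher tumoricidal signals (8%, against 4.92% of all probe sets) and 2 were lower (8%, against 3.07%). On the deposited scale 2 were higher and 3 lower, and after quantile normalization 1 was higher and 3 lower. The groups did not overlap for 2 member probe sets that were higher (8%, against 13.3% of all) and 2 that were lower (8%, against 7.6% of all). The median log2 difference over the 25 was 0.13, against 0.09 over all probe sets tested. The 4 probe sets whose groups did not overlap belong to 3 genes, Slc40a1 on the lower side and Blvrb and Slc11a1 on the higher side.

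**Figure D1:**
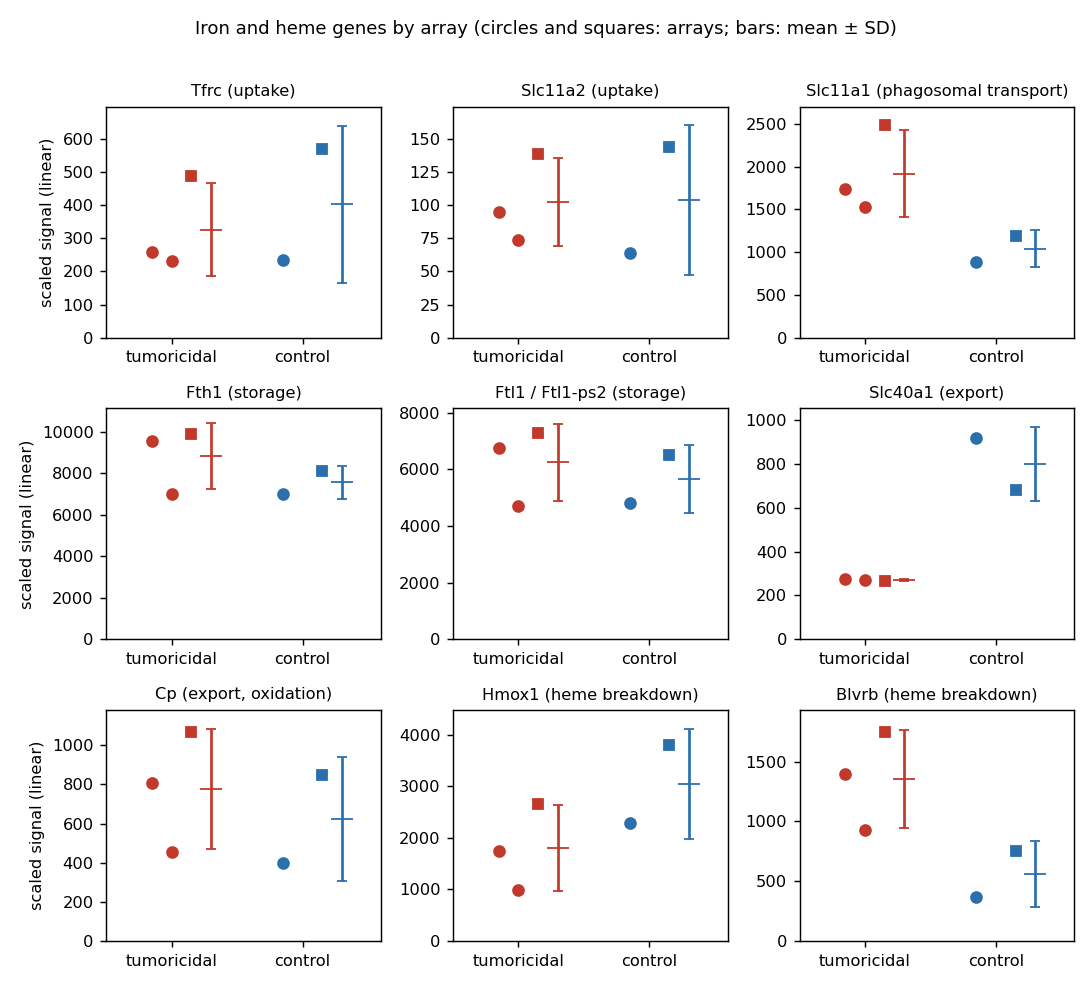
Scaled signal (linear axis from 0) of the 9 genes on each array, with tumoricidal macrophages in red on the left and control macrophages in blue on the right of each panel; bars are means ± SD (n = 3 and 2), and squares mark the 2 low-BioC arrays. Slc40a1 sits between 266 and 273 on the tumoricidal arrays and at 918 and 680 on the control arrays, while the ferritin subunits overlap between the groups.

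The largest difference at the gene level was in export. Slc40a1 encodes ferroportin, the iron exporter of the cell membrane, and lies on chromosome 1 at 45908070 to 45926532 (GRCm38.p6). Its brighter probe set, 1417061_at, read 273, 268 and 266 in tumoricidal macrophages, against 918 and 680 in control macrophages. All 3 tumoricidal arrays lay below both control arrays. The closeness of the 3 belongs to this scaling, as the deposited signals were 268.7, 278.9 and 227.9 in tumoricidal macrophages and 1152.5 and 680 in control macrophages. The means were 269 ± 3.53 in tumoricidal macrophages (SD, n = 3) and 799 ± 168 in control macrophages (SD, n = 2), a log2 difference of -1.55 (SE 0.25, 95% interval -2.17 to -0.93) or 2.93-fold lower, with an unadjusted p of 0.001 and an adjusted p of 0.175 (limma). That p stood within the lowest 0.548% of the probe sets tested. The second probe set of the gene, 1448566_at, read 150, 92.2 and 88.2 in tumoricidal macrophages and 227 and 187 in control macrophages. Its groups were also apart, with a log2 difference of -0.95 (SE 0.33, adjusted p 0.550, limma).

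The Slc40a1 difference had the same direction on both sides of the spike-in split. It was -1.76 among the 3 arrays with high BioC, -1.35 between the 2 low-BioC arrays and -1.59 with the split as a block. Leaving out 1 array at a time gave -1.77 to -1.34. The adjusted p was 0.048 when only probe sets above the median signal were tested and 0.034 when limma's prior followed the signal level and down-weighted outliers, so the call at 0.05 depends on which probe sets are tested and how the spread is estimated. Of the 16 alternatives, the comparison between the 2 low-BioC arrays gives no p. In the other 15 the adjusted p ran between 0.034 and 0.908, and the unadjusted p was under 0.05 in all 15 (limma).

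Cp, on chromosome 3 at 19956933 to 20009750, encodes ceruloplasmin, a copper ferroxidase that oxidises iron as it leaves ferroportin. Its brightest probe set, 1417494_a_at, read 806, 456 and 1069 in tumoricidal macrophages and 401 and 846 in control macrophages. The groups overlapped widely, and the low-BioC array was the highest of each. The log2 difference was 0.33 (SE 0.50, 95% interval -0.90 to 1.57, adjusted p 0.876, limma), and over the 8 Cp probe sets it ranged from -0.15 to 0.44, with 7 above 0.

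Heme breakdown is represented by Blvrb and Hmox1, whose log2 differences had opposite signs. Blvrb, biliverdin reductase B, also known as flavin reductase, lies on chromosome 7 at 27447978 to 27465981. Its probe set, 1451386_at, read 1393, 931 and 1745 in tumoricidal macrophages and 364 and 752 in control macrophages. Every tumoricidal array was above both control arrays, although tumoricidal replicate 2 and control replicate 2 came close. The means were 1357 ± 408 (SD, n = 3) in tumoricidal and 558 ± 274 (SD, n = 2) in control macrophages, with a log2 difference of 1.33 (SE 0.44, 95% interval 0.25 to 2.41, 2.51-fold higher, unadjusted p 0.024, adjusted p 0.525, limma). The difference was 1.65 among the high-BioC arrays and 1.21 between the low-BioC arrays. Dropping control replicate 1 gave 0.80 and dropping control replicate 2 gave 1.85, so the size rests on which control array is kept.

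Hmox1 encodes heme oxygenase 1, the inducible enzyme that opens heme, and lies on chromosome 8 at 75093618 to 75100593. Its probe set, 1448239_at, read 1751, 996 and 2668 in tumoricidal macrophages and 2285 and 3797 in control macrophages. Tumoricidal replicate 3 lay above control replicate 1, so the groups overlapped, and the low-BioC array was again the highest of each group. The log2 difference was -0.82 (SE 0.49, 95% interval -2.02 to 0.38, adjusted p 0.788, limma), and it was -0.79 among the high-BioC arrays and -0.51 between the low-BioC arrays. With the signals as deposited, Hmox1 read 1722, 1034 and 2282 in tumoricidal macrophages and 2869.5 and 3797 in control macrophages. On that scale the groups did not overlap and the log2 difference was -1.05 (unadjusted p 0.041, adjusted p 0.533, limma), so whether the groups overlap depends on the scaling. Over the alternatives the adjusted p ran between 0.492 and 0.929, and the difference was -0.45 without tumoricidal replicate 2 and also without control replicate 2.

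Because scaling cancels in a ratio of 2 probe sets on the same array, ratios were also taken, on pairs chosen after the values were seen and therefore given with no test. A ratio between probe sets has no meaning as a ratio of transcripts; only its change between arrays can be read. Blvrb over Hmox1 was 0.796, 0.935 and 0.654 in tumoricidal macrophages, against 0.159 and 0.198 in control macrophages. Each array of one group stood apart from each array of the other, by a log2 difference of 2.15 or 4.43-fold. The difference was 2.44 within the high-BioC arrays and 1.72 between the low-BioC arrays. On the deposited scale the groups of both genes were apart in opposite directions, so the separation of this ratio follows from those values.

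The promoter of Blvrb is shown because it was the one member window, of 10 windows for 6 members in the RefSeq table (GRCm38.p6), that held a match to a STAT6-type site. The capitals mark the match, at 146 to 137 bases before the annotated start, in the 250 bases upstream at chr7:27447728-27447977 on the plus strand:
Blvrb: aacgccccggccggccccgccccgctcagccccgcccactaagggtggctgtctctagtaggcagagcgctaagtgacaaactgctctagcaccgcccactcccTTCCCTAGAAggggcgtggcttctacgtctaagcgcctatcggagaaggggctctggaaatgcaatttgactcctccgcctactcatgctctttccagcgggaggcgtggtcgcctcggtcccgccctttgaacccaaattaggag
The letters searched were TTCNNNNGAA, which occur on either strand in 5.85% of 32851 promoter windows of the same length. The gamma-activated site TTCNNNGAA (7.02% of all windows), the interferon-stimulated response element core GAAANNGAAA (2.98%) and the antioxidant response element core TGACNNNGC (10.2%) were in 0 of the 10 member windows. A match describes these letters only and is no evidence that a factor binds there. The windows of Hmox1, Slc40a1 and Slc11a2 were not analysed here.

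Metal transport at the phagosome is the role of Slc11a1, the third gene whose groups did not overlap. It encodes Nramp1, the divalent metal transporter of the phagosome membrane of macrophages, and lies on chromosome 1 at 74375014 to 74386057. Its single probe set, 1420361_at, read 1742, 1523 and 2487 in tumoricidal macrophages and 887 and 1193 in control macrophages. The lowest tumoricidal array was above the highest control array. The log2 difference was 0.87 (SE 0.32, 95% interval 0.08 to 1.65, 1.82-fold higher, unadjusted p 0.036, adjusted p 0.585, limma). It was 0.88 among the high-BioC arrays, 1.06 between the low-BioC arrays and 0.65 to 1.08 with 1 array left out. On the deposited scale it was 0.64 and after quantile normalization 0.52, against the shifts of all probe sets given above. Markers of neutrophils, which also carry Slc11a1, had higher summed signals on the tumoricidal arrays (9102 to 10171) than on the control arrays (3893 and 6521). S100a8 and S100a9 made up most of each sum. Of the 8 markers, 6 had log2 differences above 0, while Elane (-0.35) and Mpo (-0.29) lay below 0 with overlapping groups. The part of neutrophils in the Slc11a1 difference was not tested.

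The Slc11a1 window held a match to the core of a PU.1 site, GAGGAA, a factor that macrophages are known for, and it is the only member window of the 10 that did, against 23.3% of all windows. A stretch of 30 bases at chr1:74375039-74375068 is shown, with the match in capitals at 152 to 147 bases before the start site of the RefSeq promoter table, 74375203. That site lies downstream of the gene's first annotated base, 74375014, so the stretch is inside the gene as annotated:
Slc11a1: gggtatccaggaGAGGAAcgaaggtcaaaa

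The same kind of ratio was taken for phagosomal transport and storage against export. Slc11a1 over Slc40a1 was 6.38, 5.67 and 9.34 in tumoricidal macrophages and 0.967 and 1.75 in control macrophages. The log2 difference was 2.42 or 5.35-fold, with 2.64 within the high-BioC arrays and 2.41 between the low-BioC arrays. Fth1 over Slc40a1 was 35.1, 26.2 and 37.2 in tumoricidal macrophages and 7.63 and 12.0 in control macrophages, 3.39-fold apart. Neither ratio overlapped between the groups. For Slc11a1 over Slc40a1 this follows from the values above, where the groups of both genes were already apart in opposite directions, so it is no further result. For Fth1 over Slc40a1 it follows from Slc40a1, whose groups were apart by a larger factor than Fth1 varied over the arrays. That ratio is no further result either.

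**Figure D2:**
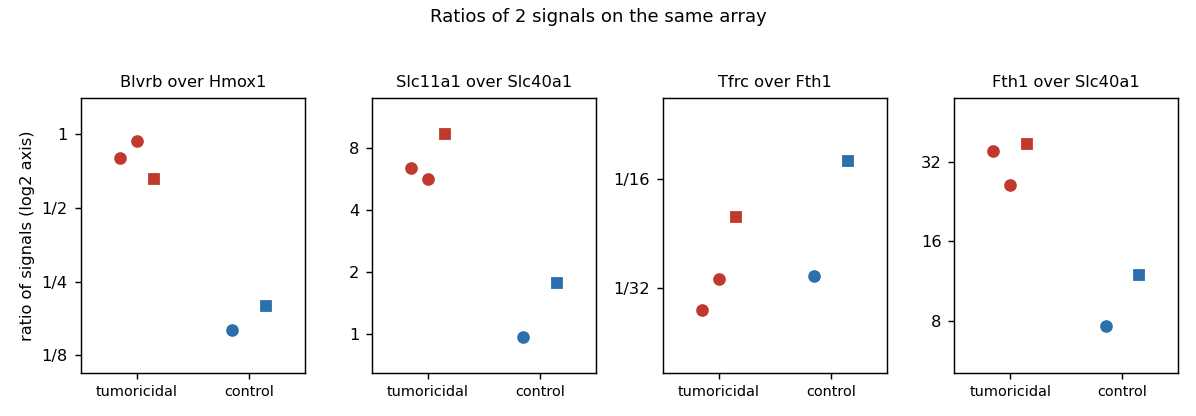
Ratio of 2 probe sets within each array on a log2 axis, with tumoricidal arrays in red on the left and control arrays in blue on the right; squares mark the low-BioC arrays. Blvrb over Hmox1, Slc11a1 over Slc40a1 and Fth1 over Slc40a1 separate the groups on all 5 arrays. Tfrc over Fth1, at 0.0271 to 0.0492 on tumoricidal arrays and 0.0337 and 0.0703 on control arrays, does not. The separation of Slc11a1 over Slc40a1 follows from the 2 genes, whose groups are each apart, and that of Fth1 over Slc40a1 follows from Slc40a1.

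With the median scaling the storage genes overlapped between the groups. Fth1, on chromosome 19 at 9980600 to 9985111, encodes the ferritin heavy chain, which oxidises iron as it enters the shell, and its probe set 1448771_a_at read 9589, 7023 and 9912 in tumoricidal macrophages and 7007 and 8138.5 in control macrophages. The log2 difference was 0.21 (SE 0.27, 95% interval -0.46 to 0.88, adjusted p 0.862, limma), and its sign turned on the deposited scale (-0.018) and after quantile normalization (-0.061). The light chain Ftl1, on chromosome 7 at 45457944 to 45459886, which promotes mineral formation in the shell, was measured only by probe sets that also carry the pseudogene Ftl1-ps2, so its signal cannot be assigned to the gene alone. The brightest of them, 1418364_a_at, read 6766, 4715 and 7279 in tumoricidal macrophages and 4827 and 6509 in control macrophages, with a log2 difference of 0.13 (95% interval -0.63 to 0.90, adjusted p 0.922, limma) that turned to -0.10 and -0.15 on those scales. A log2 difference of 1 in either direction lies outside the intervals of these 2 probe sets, but not of every probe set of the chains: 1427021_s_at for Fth1 gave 0.32 (95% interval -0.50 to 1.15) and 1422301_at for Ftl1 gave -0.44 (95% interval -1.50 to 0.62). On the deposited scale the groups of 1422301_at did not overlap, at 344, 270 and 451 in tumoricidal macrophages and 455 and 674 in control macrophages. Iron is known to control ferritin at translation, which RNA signals do not measure.

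Uptake genes also overlapped between the groups with the median scaling. Tfrc, the transferrin receptor on chromosome 16 at 32608896 to 32632794, is measured by 3 tested probe sets, of which 1452661_at read 260, 232 and 488 in tumoricidal macrophages and 236 and 572 in control macrophages. The groups overlapped, and the low-BioC array was the highest of each. The log2 difference was -0.25 (SE 0.52, adjusted p 0.910, limma), and the other probe sets gave -0.58 and -0.10. The platform's control probe sets for Tfrc, which serve as a check of RNA quality because the 3′ excess grows with degradation, gave a log2 excess of 3′ over 5′ of 1.61, 2.38 and 1.89 in tumoricidal macrophages and 3.69 and 2.18 in control macrophages, with control replicate 1 the highest. There the 5′ probe set read 5.97, close to the floor of 4.79. The same excess was between -0.35 and -0.17 for Gapdh and between 0.28 and 0.56 for Actb over the 5 arrays, with control replicate 1 again the highest for both. The part of RNA quality in the member values was not tested. Slc11a2, on chromosome 15 at 100387898 to 100424209, is the divalent metal transporter DMT1, which moves iron out of the endosome. It read 95.4, 73.7 and 139 in tumoricidal macrophages and 64.0 and 144 in control macrophages on 1417584_at. Its log2 difference was 0.05 (SE 0.46, 95% interval -1.09 to 1.18, adjusted p 0.982, limma), or -0.18 on the deposited scale, and its 4 probe sets ranged from -0.23 to 0.16.

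**Figure D3:**
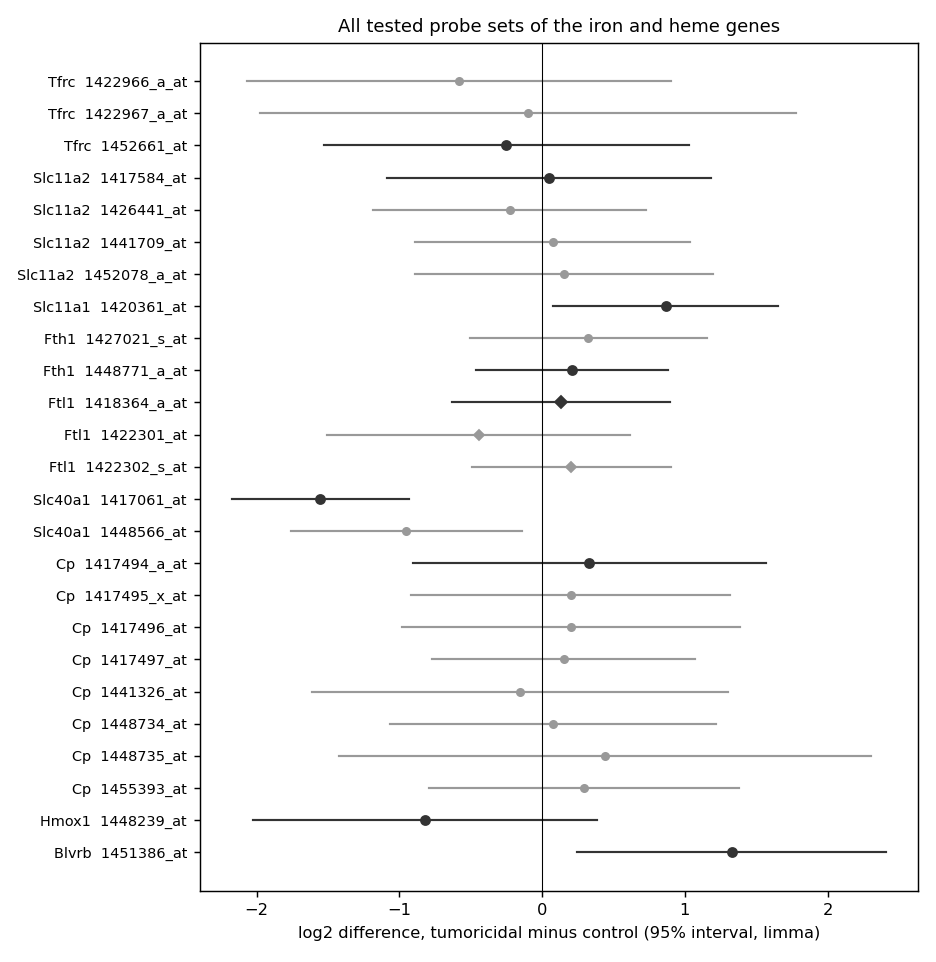
Log2 difference (tumoricidal over control) of the 25 member probe sets tested, with 95% intervals as lines; black marks the gene-level probe set, grey the others and diamonds probe sets with several symbols. The intervals of Slc40a1, Blvrb and Slc11a1 lie to 1 side of 0, while those of uptake and storage genes hold it.

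Within the groups the members moved with the spike-in split. Both low-BioC arrays were above every other array of their own group for 18 of the 25 member probe sets (72%), against 28.3% of all probe sets tested. The same pattern held for 14 members (56%, against 14.97% of all) on the deposited scale and for 16 (64%, against 20.4%) after quantile normalization. It was present in 7 of 8 Cp, 3 of 3 Tfrc and 0 of 2 Slc40a1 probe sets. The origin of the pattern was not tested.

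The genes whose array profiles were nearest to Slc40a1, by root mean square distance of centred log2 signals over the 5 arrays among 10621 genes above the median signal, were Mef2c (0.131), Smr2 (0.200) and Ccn2 (0.221), against a median distance of 0.917. Mef2c, a transcription factor, read 137, 154 and 151 in tumoricidal macrophages and 470 and 439 in control macrophages. Those nearest to Blvrb were Cxcl16 (0.094), Bst1 (0.104) and Agtrap (0.106), against a median of 0.687.

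The other genes of the iron and heme pathways were described list by list. Of 69 listed genes outside the 9, 62 were measured and 61 tested, and 0 passed the adjusted threshold (limma), with 7 higher (11.5%) and 1 lower (1.64%) at an unadjusted p under 0.05; over all 17074 named genes tested the shares were 6.12% and 2.79%. The median log2 difference of these pathway genes was 0.08, against 0.13 over all named genes. The split depended on the scaling: 3 were higher and 4 lower on the deposited scale (3.68% and 5.71% of all named genes), and 5 higher and 6 lower after quantile normalization (5.01% and 4.01%). Spic, a transcription factor known to drive ferroportin and other genes of red-pulp macrophages that recycle heme iron, read 49.4, 16.2 and 68.1 in tumoricidal macrophages and 202 and 193 in control macrophages. Its groups were fully apart, with a log2 difference of -2.38 (SE 0.63, 95% interval -3.94 to -0.82, adjusted p 0.399, limma), the same direction as Slc40a1. Alas1, the rate-limiting enzyme of heme synthesis, read 404, 281 and 419 in tumoricidal macrophages and 128 and 138.5 in control macrophages, a log2 difference of 1.45 (SE 0.28, adjusted p 0.25, limma).

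A further 6 pathway genes were higher in tumoricidal macrophages at an unadjusted p under 0.05 with the median scaling, and for 4 of them, Hif1a, Iscu, Hamp and Hamp2, this was not so on the deposited scale (p 0.0999, 0.147, 0.070 and 0.062, limma). Lcn2, the siderophore-binding lipocalin, read 152, 124 and 171 in tumoricidal macrophages and 43.0 and 93.7 in control macrophages (log2 difference 1.22, adjusted p 0.519, limma). Its difference was 0.66 without control replicate 1 and 1.78 without control replicate 2. The part of neutrophils, whose markers are given beside Slc11a1, in the Lcn2 difference was not tested. Hif1a, the hypoxia and inflammation factor, read 3159, 3622 and 4420 in tumoricidal macrophages against 2286 and 2250 in control macrophages (0.71, adjusted p 0.580, and 0.39 after quantile normalization). Slc7a11, the cystine importer, read 83.5, 82.2 and 167 in tumoricidal macrophages against 39.7 and 46.3 in control macrophages (1.29, adjusted p 0.480). Iscu, the scaffold of iron-sulphur assembly, read 895, 685 and 848 in tumoricidal macrophages against 522.5 and 509 in control macrophages (0.64, adjusted p 0.600, and 0.35 after quantile normalization). Hamp, the gene of the hormone hepcidin that blocks ferroportin, read 23.7, 26.9 and 21.7 in tumoricidal macrophages against 11.3 and 16.3 in control macrophages (0.82, adjusted p 0.532, limma). These signals are close to 16.4, the median over probe sets of their mean level (averaged as log2). Hamp2 read 20.2, 10.3 and 13.1 in tumoricidal macrophages and 7.3 and 1.2 in control macrophages; 1 control array was under the floor, and its log2 difference of 1.24 (adjusted p 0.498) depends on that floor, with 0.60 on the log2(signal + 16) scale and 2.21 with the floor at the 10th percentile.

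By list, with the median scaling and at an unadjusted p under 0.05, 1 of 13 uptake and scavenging genes was higher (Lcn2), as were 2 of 7 export and hepcidin genes (Hamp and Hamp2), 1 of 7 heme synthesis genes (Alas1), 1 of 5 mitochondrial genes (Iscu) and 1 of 7 Nrf2 targets (Slc7a11). Of 10 sensing genes 1 was higher (Hif1a) and 1 lower (Spic). Of 4 storage genes, 2 heme breakdown partners and 6 heme transport genes, 0 passed even that threshold by limma, and 0 passed the adjusted one. The largest log2 differences there were -0.41 for Ftmt and 0.31 for Pcbp2 in storage, 0.29 for Hmox2 and 0.04 for Blvra in heme breakdown, and 0.12 for Flvcr2 and 0.32 for Abcg2 in heme transport; Ftmt and Flvcr2 were at the floor on 4 of 5 arrays. List medians lay between -0.17 for Nrf2 targets and 0.38 for mitochondrial genes, and the mitochondrial median was 0.16 on the deposited scale. Cd163, the scavenger receptor for hemoglobin, read 1138, 1952 and 3305 in tumoricidal macrophages and 2265 and 3688 in control macrophages, with overlapping groups and a log2 difference of -0.57 (SE 0.51, adjusted p 0.839, limma).

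**Figure D4:**
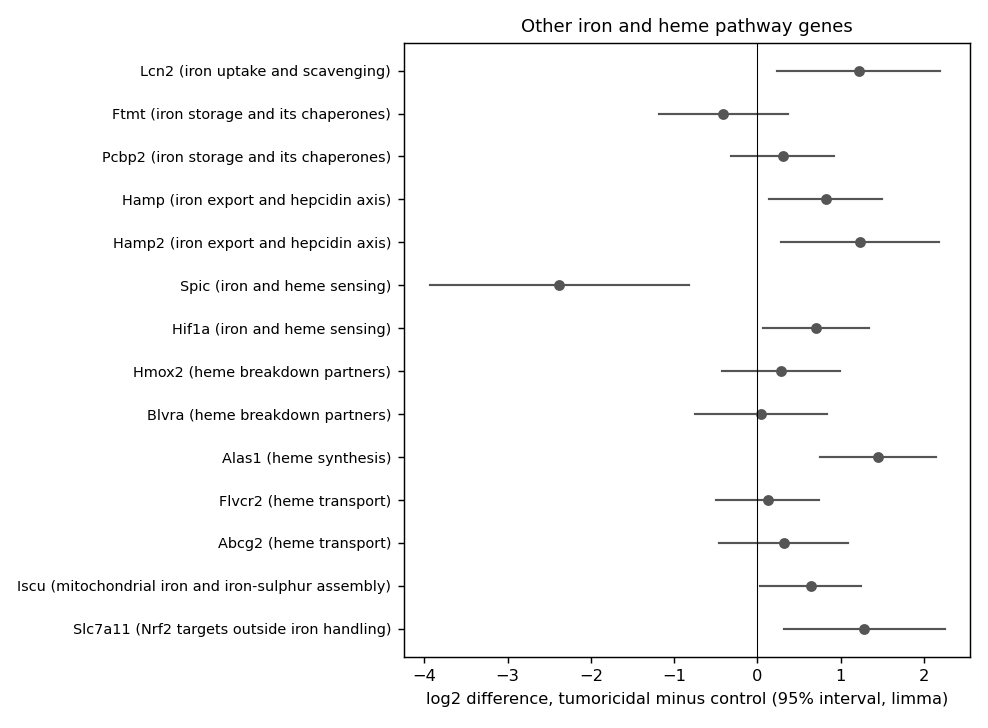
Log2 difference (tumoricidal over control) with 95% intervals of 14 named pathway genes outside the 9 members. Spic lies furthest to the lower side (-2.38) and Alas1 furthest to the higher side (1.45).

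Markers of other cell types that the CD11b+ sort could hold were read beside these values. Their part in the differences of the members and pathway genes was not tested. Over all named genes tested, 6.12% were higher and 2.79% lower at an unadjusted p under 0.05 (limma). Over all probe sets tested, the groups were apart for 13.3% on the higher side and 7.6% on the lower side. Neutrophil markers gave 3 of 8 higher at an unadjusted p under 0.05, S100a8, S100a9 and Cxcr2, with the sums given beside Slc11a1. Of 9 plasma cell and myeloma markers 4 were lower, and the sum of the 9 was 3600 to 4883 on the tumoricidal arrays and 5635 and 6317 on the control arrays. The groups were apart for 5 on the lower side and for 2, Xbp1 and Prdm1, on the higher side. Xbp1, most of the sum on the tumoricidal arrays, read 3132, 3098 and 3297 there and 2456 and 2721 on the control arrays. Pou2af1 read 50.5, 45.3 and 69.5 in tumoricidal macrophages and 483 and 544 in control macrophages. Jchain, the joining chain of polymeric antibodies, read 387, 78.7 and 561 in tumoricidal macrophages and 1623 and 1985 in control macrophages, and Tnfrsf17 was at the floor on the 3 tumoricidal arrays. Of 7 T and natural killer cell markers 4 were higher (Cd3g, Ncr1, Eomes and Klrk1). The sum of the 7 was 539 to 1212 on the tumoricidal arrays and 166 and 111 on the control arrays. Cd3d read 22.8, 397 and 20.8 in tumoricidal macrophages and 30.0 and 11.3 in control macrophages. Cd3e read 8.7, 196 and 9.6 against 8.4 and 2.6, so both were high on tumoricidal replicate 2 only.

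Erythroid markers bear on heme, since engulfed or adhering red cells would bring it. Of 13 listed, 8 were measured and 1 of these was lower (Epor), while 4 had log2 differences above 0. The sum was 98.7 to 124 on the tumoricidal arrays and 129.5 and 138 on the control arrays. The sums are apart only through Epor, and without it they overlap. Epor read 27.1, 27.4 and 35.5 in tumoricidal macrophages and 64.7 and 53.7 in control macrophages. The alpha-globin gene Hba-a2 read 29.9, 17.5 and 52.5 in tumoricidal macrophages and 19.5 and 32.2 in control macrophages, overlapping between the groups (log2 difference 0.27, adjusted p 0.905, limma). Hba-a1 was at the floor on 3 arrays and Rhag on 4. Alas2, the erythroid enzyme of heme synthesis, was at the floor on all 5. Fibroblast and endothelial markers, 0 of 8 of which passed the unadjusted threshold by limma in either direction, summed to 1233 to 4100 on the tumoricidal arrays and to 3157 and 1889 on the control arrays. In such bulk samples fewer cells of a type and less RNA per cell cannot be told apart.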

How the data were processed

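The values deposited for the 5 Affymetrix arrays are signal intensity on a linear scale, 1 per probe set; per the labels' protocols, total RNA was Trizol-extracted and 6 µg was made into biotinylated cRNA. How the signals were summarised and scaled is not given in the sources used here. Each array averages 100.0 once 2% of its values are dropped at either end. Arrays give no read depth.

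Here each array was scaled to a common median (factors 0.796 to 1.17), 64 platform controls were set aside, a floor was placed at the pooled 25th percentile (signal 4.79) and log2 was taken. The 41053 probe sets above the floor on at least 1 array were compared with limma 3.58.1 (lmFit, eBayes) in R 4.3.3, two-sided, with no covariate; Python 3.11.15 and matplotlib 3.10.9 were used for tables and plots. The fit was tested on simulated data.

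Gene names are those of the platform annotation, in which 34945 probe sets have 1 symbol, 932 several and 9160 none, and 0 symbols changed through the Entrez identifier. A gene's value is its single-symbol probe set with the highest mean log2; for Ftl1 the brightest of several symbols. The members, lists and tests were chosen with earlier results of these data known. Named genes are all members, up to 4 per pathway list with unadjusted p under 0.05 and groups apart (otherwise the 2 with the largest difference), up to 4 brightest of each marker list, and the 3 nearest profiles of 2 members; Cd163 and single markers beyond these were named after their values were seen. The pathway lists covered uptake, storage, export with hepcidin, sensing, heme breakdown, synthesis and transport, mitochondrial iron, and Nrf2 targets. The marker lists covered macrophage, neutrophil, plasma cell, T and natural killer, erythroid, and fibroblast with endothelial cells.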

Additional observations from a re-analysis of the deposited data

How the results depend on the processing

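With 3 arrays against 2, calls over the whole table depended on how the spread and the floor were set. The 14 higher and 7 lower probe sets became 0 and 0 with the floor at the 10th percentile, 59 and 12 with log2(signal + 16), 168 and 25 with only probe sets above the median, and 177 and 25 with limma's trend and robust options; without a filter on dim probe sets 41 were lower. They were 0 and 0 with the spike-in split as a block, within its high-BioC side and with each array left out (range 0 to 0). Member calls were 1 with only probe sets above the median and 1 with trend and robust, Slc40a1 both times. Deviations from the group means of arrays with equal replicate numbers correlated at 0.02 and -0.24. With 2 control arrays these deviations mirror each other, so the 2 values cannot show whether the arrays are paired. The replicate block gave 0 and 0 calls, and log2 differences of -0.19 for Slc11a2 and -0.079 for Blvra. Slc40a1, Blvrb, Slc11a1 and Hmox1 kept their direction in all 16 alternatives. Others reversed. With deposited scaling the values were -0.18 for Slc11a2, -0.018 for Fth1, -0.10 for Ftl1 and -0.19 for Blvra. With quantile normalization they were -0.069 for Slc11a2, -0.061 for Fth1, -0.15 for Ftl1, -0.064 for Pcbp2, -0.043 for Hmox2 and -0.25 for Blvra. Within 1 side of the split Slc11a2 gave -0.055 and Tfrc 0.058, and other probe sets gave -0.23 for Slc11a2, -0.44 for Ftl1 and -0.15 for Cp. With 1 array left out the ranges were -0.54 to 0.63 for Slc11a2, -0.89 to 0.39 for Tfrc, -0.083 to 0.35 for Ftl1, -0.21 to 0.87 for Cp and -0.24 to 0.32 for Blvra. The causes were not tested. Differences of genes with arrays at the floor of 4.79, such as Hamp2 (0.60 to 2.21 over the alternatives), depend on that floor. Pathway genes higher at an unadjusted p under 0.05, recounted after seeing the data, numbered 2 to 10 over the alternatives, and those lower 1 to 6.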
